A study of Rattus norvegicus with 18 samples.

Results

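The cytosolic ribosomal protein genes are the genes for the proteins of the ribosomes that translate nuclear mRNAs. They were taken from the array's gene annotation by symbol, as every symbol that starts with Rpl or Rps followed by a digit, together with Rplp0, Rplp1, Rplp2 and Rpsa, leaving out the Rps6k kinases, pseudogenes and unnamed loci. This gave 67 of the 13337 genes with a symbol. Of these, 43 encode proteins of the large subunit and 23 proteins of the small subunit. The remaining one, Rps19bp1, met the symbol rule but encodes a protein that binds Rps19 and is not part of the ribosome, so it was counted among the 67 and in neither subunit. The 67 genes have 68 probes, because Rps9 has 2, and each gene is represented by its brightest probe over the 18 arrays.

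Whole livers of 18 Wistar rat pups were measured at postnatal day (PND) 27 on Illumina RatRef-12 arrays, 1 array per pup. The pups came from dams given the vehicle alone (G1), 0.002 mg/kg (G2) or 0.2 mg/kg (G3) of BDE-47 (2,2′,4,4′-tetrabromodiphenyl ether, a brominated flame retardant), with 6 pups, 3 males and 3 females, in each group. All dams, controls included, were injected in the tail vein every 5 days from gestational day 15 to PND 20, 6 injections per dam, with the solvent mixture of ethanol, Cremophor EL and water. Each group had 3 dams, and 1 male and 1 female pup were taken per litter, but the labels do not say which pups are littermates, so p-values that treat the 6 pups as independent would be too small if the pups of a litter are alike. All expression values below are the deposited normalized values on the log2 scale, and differences are differences of log2 values.

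A ribosome has a large subunit, which joins amino acids, and a small subunit, which reads the mRNA. Their proteins are needed in equal numbers, and in mammals the mRNAs of nearly all of them begin with a C followed by a run of pyrimidines, the 5′ terminal oligopyrimidine (TOP) motif, through which mTOR and Larp1 control their translation. In liver these mRNAs are among the most abundant housekeeping messages, and growing liver makes many ribosomes.

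The start sites of the genes are shown for a few members on which the results below turn, because a TOP motif, where present, begins there. RefSeq (rat assembly GRCr8) had a promoter for 55 of the 67 genes. In the 50 bases around the annotated start, 25 before it and 25 from it, a run of at least 8 pyrimidines on the gene's own strand was present in 42 of the 55 (76.4%), against 19.3% of the 27456 promoters in the table. A C followed by 4 pyrimidines at the start itself was present in 21 (38.2%), against 2.63%. On both strands of the same window, CTTTCC was found in 17 (30.9%, against 4.40%), CTCTTT in 14 (25.5%, against 3.76%) and CTTCCG, the core of an ETS-factor site, in 9 (16.4%, against 5.30%). These motifs can overlap with the pyrimidine run and with one another, and a match only describes letters in the window. In the sequences below, written 5′ to 3′, capitals mark the longest pyrimidine run. Rpl21 (chr12:13386129-13386178, minus strand) and Rpl10 (chrX:157205825-157205874, plus strand) were among the genes with higher values at the high dose, and Rpl18 (chr1:105325245-105325294, plus strand) and Rps10 (chr20:5700720-5700769, minus strand) among those with lower values in exposed groups. Rplp0 (chr12:46718366-46718415, minus strand) carried the highest signal, and Rps19bp1 (chr7:113692999-113693048, minus strand) is the gene outside the ribosome.
Rpl21: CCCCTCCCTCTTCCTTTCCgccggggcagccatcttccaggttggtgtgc
Rpl10: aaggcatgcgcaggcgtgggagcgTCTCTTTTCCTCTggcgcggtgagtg
Rpl18: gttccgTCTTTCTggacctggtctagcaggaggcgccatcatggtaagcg
Rps10: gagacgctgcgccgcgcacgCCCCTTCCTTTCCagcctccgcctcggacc
Rplp0: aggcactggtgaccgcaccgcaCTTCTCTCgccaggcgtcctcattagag
Rps19bp1: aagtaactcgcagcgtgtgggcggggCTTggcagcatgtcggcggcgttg
The longest run measured 19 bases in Rpl21, 13 in Rpl10, 7 in Rpl18, 13 in Rps10 and 8 in Rplp0, and only 3 in Rps19bp1. It began at position -25 in Rpl21 and -19 in Rpl18, and in both it ended before the annotated start. Of the genes shown, only Rpl10 and Rplp0 had a C followed by 4 pyrimidines at the start itself, so the capitals do not mark TOP motifs as such.

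Ribosomal protein probes were among the brightest on the arrays. The median member lay at percentile 98.4 of all 22523 probes, and 23 members were among the 226 brightest (1%). The mean over the 18 arrays was above 12 for 44 members (26 large and 18 small subunit), between 9 and 12 for 9, and below 9 for 14. The highest means belonged to Rplp0 (15.25), the base of the stalk that recruits elongation factors, Rpl41 (15.15), Rpl23a (15.06), which lies at the exit of the peptide tunnel, Rpl32 (14.83) and Rps18 (14.80). The lowest belonged to Rpl11 (7.75), Rpl34 (7.76), Rpl12 (7.78), Rps19 (7.79) and Rpl36a (7.80). These 5 were not above the median of all probes, 7.84, where the array has no order left to measure, so the remaining 62 carry the comparisons. A probe's signal also depends on its own sequence, so these means do not rank the mRNAs. Levels of signal went with spread: the median SD within groups was 0.153 for the members and 0.0362 for all probes, but among probes with a mean above 12 it was 0.157 for members and 0.169 for all 792 such probes.

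No member of the 67 passed an adjusted p of 0.05 in any of the 3 comparisons between groups (limma, Benjamini-Hochberg over all 22523 probes). The background was low as well: 0.0799% of all probes passed in G3 against G1, 0.0133% in G2 against G1 and 0.0178% in G3 against G2. The members below are therefore described by their values, by adjusted p and by the number at an unadjusted p of at most 0.05, which is a count and not a call. In bulk liver, fewer cells of a type and less RNA per cell cannot be told apart, and the number of arrays limits the precision throughout.

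At the high dose, the members closest to the threshold were 3 large subunit genes, Rpl21, Rpl15 and Rpl27, whose G3 and G1 pups did not overlap. No other member separated the groups, so the share was 3 of 67, and 1.95% of all probes separated them in either direction. Of the members with a mean above 12 it was 2 of 44, beside 29 of 792 probes of that brightness higher in G3 and 13 lower. Rpl21 ranged from 12.96 to 13.30 in G1 (median 13.09), from 12.96 to 13.35 in G2 (median 13.21) and from 13.33 to 13.45 in G3 (median 13.39). The 6 G3 pups lay close together above every control, and the G2 pups spanned the range of the controls. The difference G3 minus G1 was 0.28 ± 0.05 (SE, 95% interval 0.17 to 0.39, limma adjusted p = 0.0584). Rpl27 ranged from 13.12 to 13.61 in G1 (median 13.47), from 13.45 to 13.71 in G2 (median 13.51) and from 13.65 to 13.86 in G3 (median 13.73). As with Rpl21, the G2 pups overlapped the controls, and the lowest G3 pup stood just above the highest control. The difference was 0.30 ± 0.07 (SE, limma adjusted p = 0.0824). Rpl15, also a large subunit protein, gave a dimmer signal, with 7.94 to 8.09 in G1 (median 8.05), 8.02 to 8.34 in G2 (median 8.14) and 8.11 to 8.22 in G3 (median 8.17). Its difference of 0.14 ± 0.03 (SE, limma adjusted p = 0.0616) lies near the level where the array loses order. For each of the 3 genes the exact two-sided permutation test of 6 against 6 pups gave 0.00216, the smallest p this design allows. These 3 were the ones singled out after the values of all 67 were known, so that p is a description.

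The larger differences belonged to members whose controls were widely spread. Rpl7, a large subunit protein, was at 10.65 to 11.84 in G1 (median 11.23), 11.43 to 12.11 in G2 (median 11.71) and 11.75 to 12.11 in G3 (median 11.94). The difference G3 minus G1 was 0.72 ± 0.19 (SE, limma adjusted p = 0.0976), with G1 replicate 6 inside the G3 range. Rpl10, which joins the large subunit late in its maturation, was at 13.08 to 14.41 in G1 (median 13.92), 14.04 to 14.45 in G2 (median 14.27) and 14.23 to 14.47 in G3 (median 14.33). Its difference was 0.52 ± 0.19 (SE, limma adjusted p = 0.166). In both genes G1 replicates 1 and 2 were the lowest controls, at 10.65 and 10.68 for Rpl7 and at 13.46 and 13.08 for Rpl10, while replicate 6 was the highest. Rps2, a small subunit protein named here after its values were seen, followed the same pups, with 10.23 and 9.90 in replicates 1 and 2, 11.21 in replicate 6 and a difference of 0.58 ± 0.19 (SE, limma adjusted p = 0.148). With G1 replicate 6 left out, 10 members passed an adjusted p of 0.05 in G3 against G1, all higher in G3, and no other pup left out gave any. They were Rpl21, Rpl36al1, Rps19bp1, Rpl5, Rpl7, Rpl27, Rpl15, Rps2, Rpl10 and Rpl23, with limma adjusted p from 0.00641 to 0.0475. Rpl5, Rps2 and Rpl23 were named after their values were seen. The share of all probes past the threshold in that fit was not counted, so the 10 have no background to be read against. The 2 remaining members of the 6 with the smallest p on the higher side were Rpl36al1, a copy of Rpl36a (0.30 ± 0.09, SE, adjusted p = 0.115), and Rps19bp1 (0.22 ± 0.07, SE, adjusted p = 0.126).

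**Figure D1:**
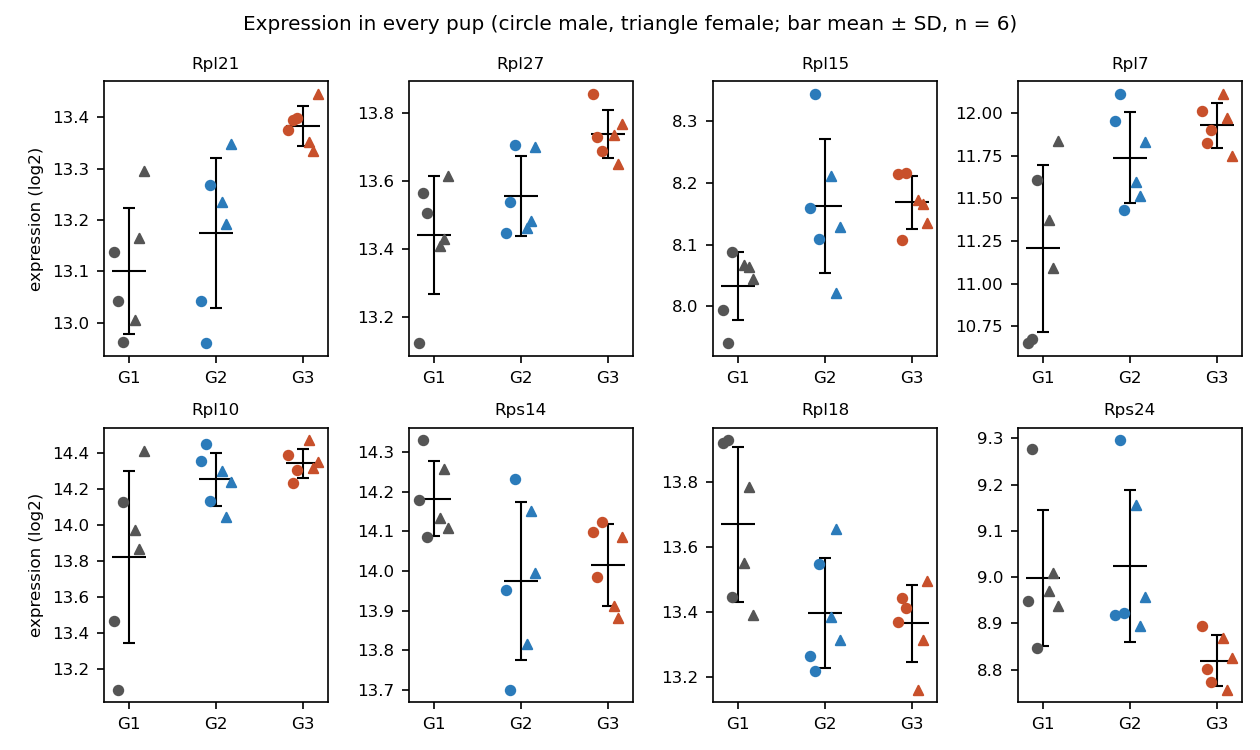
Log2 expression of 8 ribosomal protein genes in every pup, by group (G1 vehicle, G2 0.002 mg/kg, G3 0.2 mg/kg BDE-47; circles males, triangles females; bars mean ± SD, n = 6); each panel has its own vertical scale, which does not start at 0. The G3 pups of Rpl21 (13.33 to 13.45) stand above all controls (12.96 to 13.30), while the controls of Rpl7 and Rpl10 spread over more than 1 log2 unit.

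Other members had lower values at the high dose. Rps14, on the platform of the small subunit, was at 14.09 to 14.33 in G1 (median 14.16), 13.70 to 14.23 in G2 (median 13.97) and 13.88 to 14.12 in G3 (median 14.03), a difference of -0.17 ± 0.05 (SE, limma adjusted p = 0.135). The highest G3 pups overlapped the lowest controls only. Rpl18 was at 13.39 to 13.93 in G1 (median 13.67), 13.22 to 13.65 in G2 (median 13.35) and 13.16 to 13.50 in G3 (median 13.39), a difference of -0.30 ± 0.10 (SE, limma adjusted p = 0.149). The top of its range was set by G1 replicates 1 and 2, at 13.92 and 13.93, the same pups that were lowest for Rpl7 and Rpl10. Rpl14 repeated this order, with 14.48 and 14.70 in those pups against 14.24 to 14.46 in the other 4 controls, and a difference of -0.22 ± 0.08 (SE, limma adjusted p = 0.156). Rps24, a small subunit protein mutated in some human Diamond-Blackfan anaemia, was at 8.85 to 9.28 in G1 (median 8.96), 8.89 to 9.30 in G2 (median 8.94) and 8.76 to 8.90 in G3 (median 8.81). Its G2 pups lay with the controls, and its difference G3 minus G1 was -0.18 ± 0.06 (SE, limma adjusted p = 0.151). Rpl3l, the paralog of Rpl3 used in muscle, was at 8.48 to 8.84 in G1 and 8.36 to 8.52 in G3, a difference of -0.17 ± 0.06 (SE, limma adjusted p = 0.162). Rpl8 differed by -0.31 ± 0.13 (SE, limma adjusted p = 0.226).

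Counted over the family, 15 of the 67 members were higher and 8 lower in G3 than in G1 at an unadjusted p of at most 0.05, which is 22.4% and 11.9%, against 8.59% and 9.98% of all probes. Since the members are bright, probes of like signal are the closer background. Among probes above the median brightness 14.1% were higher and 15.5% lower, against 24.2% and 12.9% of the 62 members above it. Among probes with a mean above 12, 17.9% were higher and 16.9% lower, against 18.2% and 11.4% of the 44 members. With a mean above 12, the share of members with higher values thus stood at that of probes in general. Over the 62 members above the median it was larger, 24.2% against 14.1%. The lower count was 5 without replicate 1, 2 or 5 of G1 or replicate 4 or 5 of G3. The share of all probes was not counted in those fits. The median difference over the 67 was 0.057, beside -0.0033 over all probes and 0.0047 over probes with a mean above 12, and 39 members were on the positive and 28 on the negative side.

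**Figure D2:**
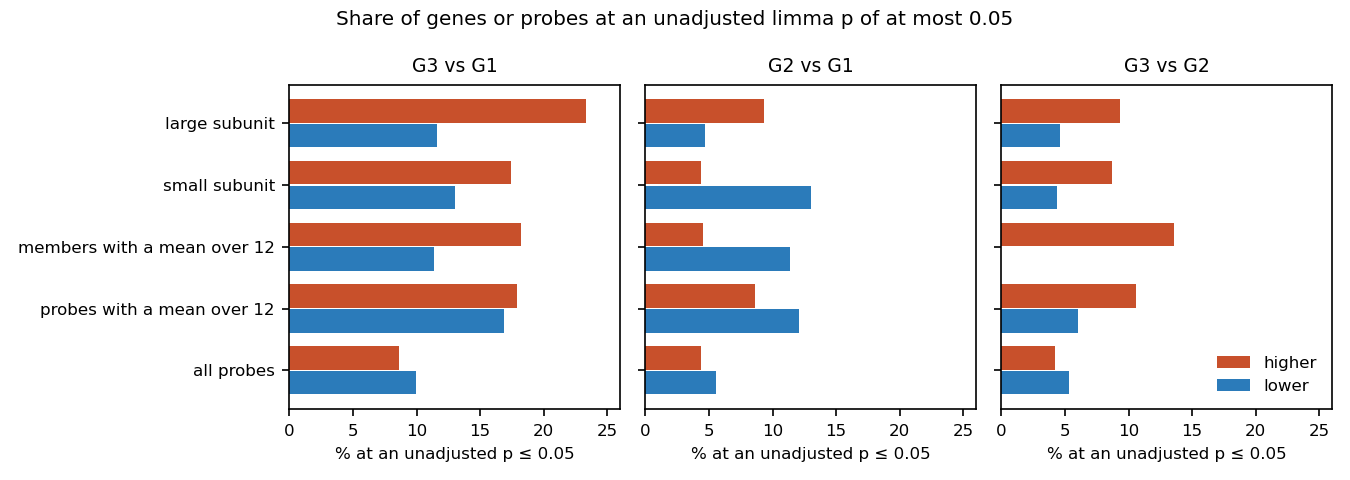
Share of genes or probes (in percent) at an unadjusted limma p of at most 0.05, higher (orange) or lower (blue), in each comparison between groups, for the 43 large and 23 small subunit genes, the 44 members and the 792 probes with a mean above 12, and all 22523 probes. In G3 against G1 the bright members (18.2% higher, 11.4% lower) stand beside the bright probes (17.9% and 16.9%), above all probes (8.59% and 9.98%).

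At the low dose 5 members were higher and 5 lower in G2 than in G1 at an unadjusted p of at most 0.05, 7.46% each, against 4.4% and 5.59% of all probes and 6.77% and 8.67% of probes above the median brightness. The smallest adjusted p among the members was 0.456, and no member separated the groups, as 0.448% of all probes did. Higher were Rplp2, a stalk protein that carries elongation factors to the ribosome, Rpl15, Rpl7, Rps15 and Rpl10. Rplp2, dim at 7.77 to 7.88 in G1 and 7.87 to 8.00 in G2, differed by 0.078 ± 0.024 (SE, limma adjusted p = 0.456). Rpl7 differed by 0.53 ± 0.21, Rpl10 by 0.43 ± 0.19 and Rps15 by 0.22 ± 0.09 (SE, limma adjusted p from 0.486 to 0.499). Lower were Rps10, Rps14, Rpl18, Rpl14 and Rps3a, by 0.17 to 0.27. Rps10, a small subunit protein, was at 14.16 to 14.51 in G1 and 13.92 to 14.22 in G2, and Rpl18 differed by -0.27 ± 0.11 (SE, limma adjusted p = 0.487). These counts changed when single pups were left out. They were 11 higher and 8 lower without G1 replicate 6, 2 and 2 without G1 replicate 1, 3 and 0 without G1 replicate 2 or G2 replicate 4, 2 and 1 without G1 replicate 5, and 3 and 1 without G2 replicate 6. The lower count was 0 without G2 replicate 1, and the higher count 3 without G2 replicate 2. The share of all probes was not counted in these fits, so the changes have no background to be read against. Rpl7, Rpl10, Rpl15, Rps14, Rpl18 and Rpl14 were counted at both doses and on the same side, but G2 and G3 were set against the same 6 controls, so the likeness is no independent repeat. Erythroid transcripts were read beside this comparison. Of 9 measured of 10 listed, 5 were lower in G2 than in G1 at an unadjusted p of at most 0.05 and 0 higher, all 9 had negative differences, and their summed level was 16.29 to 16.53 in G1, 15.89 to 16.44 in G2 and 16.26 to 16.42 in G3. These ranges overlapped, and the smallest adjusted p among the 9 was 0.475 (limma). Their signal came from the haemoglobin genes, with Hba-a1 at 15.06 to 15.52 and Hbb at 14.54 to 15.24 in G2, while 5 of the 9 lay near the median probe, with means of 7.83 to 8.19 over the 18 arrays. Their part in the ribosomal protein values was not tested.

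Between the doses, 6 members were higher and 3 lower in G3 than in G2 at an unadjusted p of at most 0.05, 8.96% and 4.48%, against 4.18% and 5.29% of all probes and 5.86% and 7.13% of probes above the median brightness. Higher in G3 were Rpl21 (0.21 ± 0.06, SE, limma adjusted p = 0.346), Rpl27 (0.18 ± 0.05, adjusted p = 0.352), Rplp0 (0.084 ± 0.028, adjusted p = 0.401), Rps4x, Rpl36al1 and Rps3. Rps3, which lines the mRNA entry channel, was at 11.75 to 12.63 in G1, 12.10 to 12.58 in G2 and 12.41 to 12.61 in G3. Rplp0 was at 15.17 to 15.31 in G1, 15.16 to 15.27 in G2 and 15.23 to 15.38 in G3, so its 3 groups overlapped within a narrow band. Lower in G3 were Rps24 (-0.20 ± 0.07, SE, limma adjusted p = 0.393), Rplp2 and Rpl3l. Among the members with a mean above 12 the counts were 6 higher and 0 lower of 44 (13.6% and 0%), beside 10.6% and 6.06% of the 792 probes of that brightness. The higher count over all members was 3 without G2 replicate 1 or 5, and the lower count 1 without replicate 3 of G2 or replicate 3 or 6 of G3. In those fits the share of all probes was not counted. Of the erythroid genes 4 of 9 were higher in G3 than in G2 at an unadjusted p of at most 0.05 (smallest limma adjusted p 0.414), and their part in these values was not tested.

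**Figure D3:**
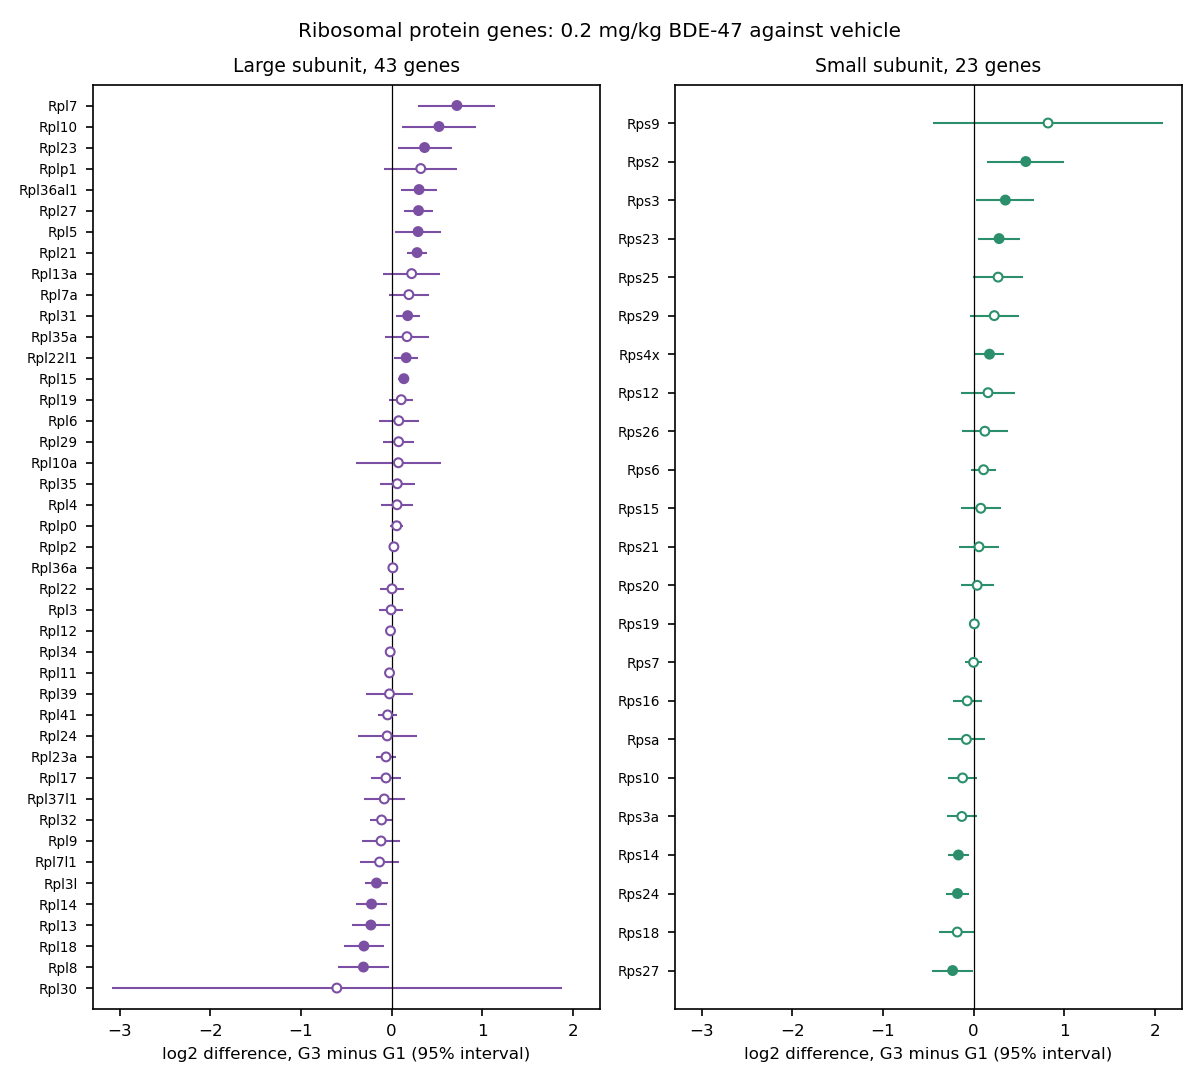
Difference in log2 expression between G3 (0.2 mg/kg) and G1 (vehicle) for the 43 large (left) and 23 small (right) subunit genes, with 95% intervals from limma (6 pups per group); filled points have an unadjusted p of at most 0.05, and none passed an adjusted p of 0.05. Most members lie within 0.3 of 0, on both sides, and Rpl30 (-0.60) and Rps9 (0.82) have by far the widest intervals.

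The large and the small subunit were compared by their medians and by their mean in each pup, as a description without a test. In G3 against G1, 10 large subunit members were higher and 5 lower of 43 (23.3% and 11.6%), and 4 small subunit members higher and 3 lower of 23 (17.4% and 13%), beside 14.1% and 15.5% of probes above the median brightness. Their median differences were 0.026 and 0.059. In G2 against G1 the medians were 0.010 and 0.030, and in G3 against G2 0.012 and 0.037, with -0.0015 and -0.00071 over all probes. The mean over the large subunit members was 11.93 to 12.23 in G1, 12.05 to 12.21 in G2 and 12.03 to 12.23 in G3, and that over the small subunit members was 12.59 to 12.75, 12.66 to 12.93 and 12.63 to 12.89. All 3 groups overlapped for both subunits. The large minus the small mean was -0.59 ± 0.07 in G1, -0.64 ± 0.10 in G2 and -0.63 ± 0.08 in G3 (SD, n = 6). The sign has no meaning, since different probes are averaged, and the differences between groups, -0.041 for G3 minus G1 and -0.055 for G2 minus G1, were smaller than the SD between pups, 0.0846. With the median over members in place of the mean, the sign for G3 minus G1 turned, to 0.051, and the value for G3 minus G2 was 0.11 in place of 0.013. Without Rps9 and Rpl30, whose pups fell into separate levels (below), the values were -0.63 ± 0.05, -0.63 ± 0.06 and -0.62 ± 0.03, an alternative added after seeing the data. The differences between groups were then 0.0072 for G3 minus G1 and -0.0073 for G2 minus G1.

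**Figure D4:**
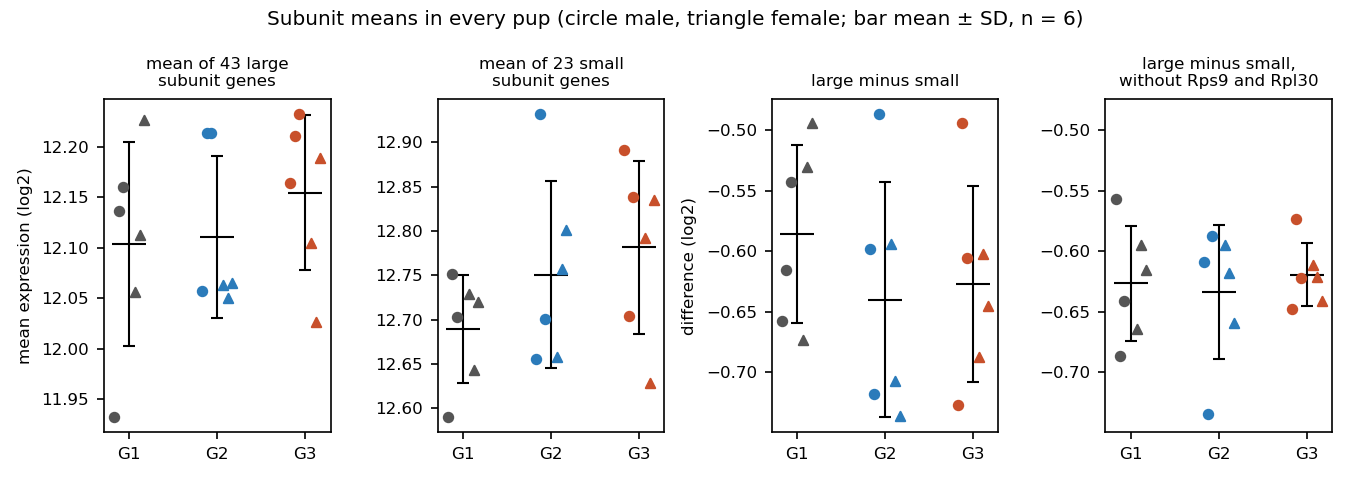
Mean log2 expression of the 43 large and 23 small subunit genes in every pup, and the large minus the small mean with all members and without Rps9 and Rpl30 (circles males, triangles females; bars mean ± SD, n = 6); vertical scales do not start at 0. The groups overlap in each panel, and the spread of the difference shrinks once the 2 genes are left out, in G3 from an SD of 0.0811 to 0.0262.

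Rpl30 and Rps9 did not vary around one level but fell into separate ones. The probe of Rpl30, a large subunit protein that in yeast limits the splicing of its own transcript, had the largest SD within groups of all 22523 probes, 2.05. It was at 12.34 to 13.44 in 9 pups and at 8.75 to 9.45 in the other 9, with no pup between. The upper pups were 4 of 6 in G1, 2 of 6 in G2 and 3 of 6 in G3, and within them 5 pups lay at 12.34 to 12.86 and 4 at 13.36 to 13.44. Replicates 2 and 3 were high and replicates 1 and 4 low in all 3 groups, while replicates 5 and 6 differed between groups. Over the probes above the median brightness, same-numbered pups did not deviate together. The difference G3 minus G1 was -0.60 (95% interval -3.09 to 1.88, limma adjusted p = 0.824). Both probes of Rps9, a small subunit protein, divided the pups in another way, 8 high and 10 low, and agreed on every pup. The brighter probe was at 12.91 to 13.35 in the high pups and 10.49 to 11.47 in the low ones, and the second probe at 11.62 to 12.47 and 9.13 to 9.78, with SDs within groups that ranked 14 and 4 among all probes. The high pups were replicate 1 of G1, replicates 2, 5 and 6 of G2, and replicates 1, 3, 4 and 6 of G3. Their number was thus 1, 3 and 4 of 6 in the 3 groups, and the difference G3 minus G1 was 0.82 (95% interval -0.45 to 2.09, limma adjusted p = 0.489) for the brighter and 1.16 for the second probe. A probe without a symbol, found by searching the most variable probes after these values were seen, split the same 8 from the same 10 pups, at 12.47 to 13.04 and 8.41 to 9.14. Males and females were on both sides for each gene, but not evenly for Rpl30. Its difference female minus male was -1.43 ± 0.88 (SE, limma adjusted p = 0.899), and the lowest such difference over all probes was also -1.43. For the brighter Rps9 probe it was -0.097. What sets the levels was not tested. A mean of 6 such pups reflects how many stand at each level, so neither gene has a useful group mean. Separate levels were not particular to these genes. Among the most variable probes, RT1-A2 lay at 7.78 to 7.90 or 10.42 to 12.12, and Pxmp4 at 8.15 to 8.39 or 10.00 to 10.48. The mitochondrial ribosomal protein gene Mrpl18 lay at 8.41 to 9.02 or 10.62 to 11.58.

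**Figure D5:**
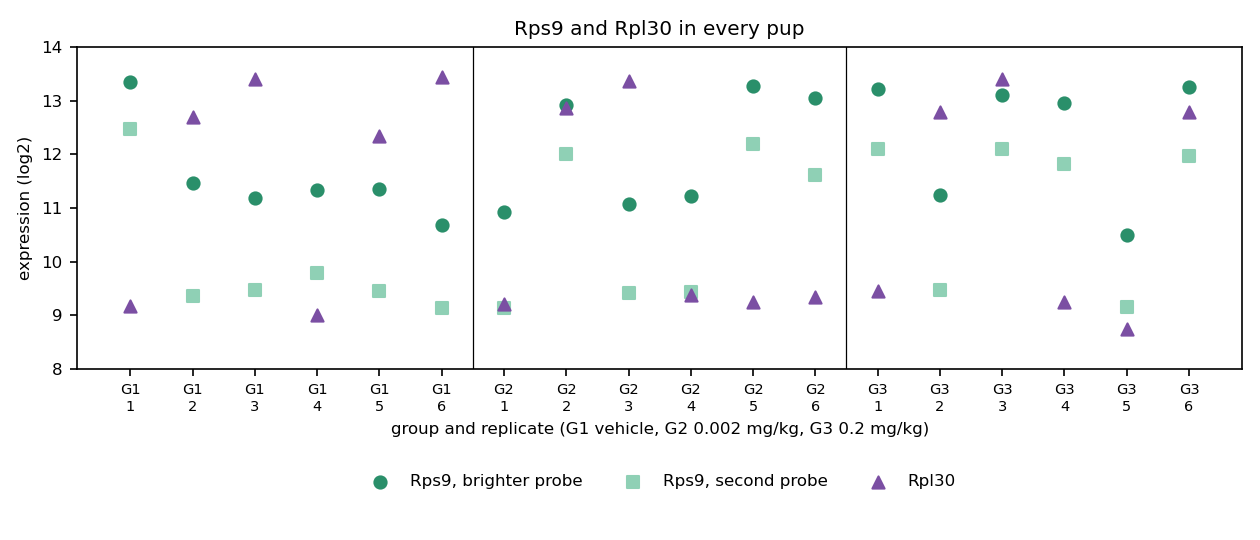
Log2 expression of both Rps9 probes and of Rpl30 in each of the 18 pups, by group and replicate. The Rps9 probes are high together in 8 pups (12.91 to 13.35 for the brighter probe) and low together in 10, and Rpl30 is high in a different set of 9 pups (12.34 to 13.44).

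Within groups, the deviations of the other members from the group means were described by their leading axis. Each member's deviations were first scaled to the same sum of squares. Over the 51 members with a mean above 9 other than Rps9 and Rpl30, the leading axis held 33.8% of this scaled variance. The second axis held 22.7%. On the leading axis 27 members lay on one side and 24 on the other. Other probes were not read in this way, so whether such an axis is particular to the family was not tested. Rpl23, Rpl7, Rpl10, Rps2 and Rps29 led one side and Rpl18, Rpl14, Rpl32, Rps27 and Rpsa the other, so both subunits were on both. The extreme pups were controls, G1 replicate 2 at -0.55 and G1 replicate 6 at 0.48, on an axis where the G3 pups ran from -0.12 to 0.21. Rpl21 and Rpl27 lay near 0 on it, with loadings of -0.0063 and 0.0225. The control pups were also more spread than the exposed ones: the median SD of the members was 0.179 in G1, 0.128 in G2 and 0.113 in G3, and 53 of 67 (79.1%) had a larger SD in G1 than in G3. Of all probes 59.9% had. Among those with a mean above 12, it was 84.1% of the 44 members and 71.6% of the 792 probes. The median SDs of these 44 members were 0.187 in G1, 0.136 in G2 and 0.114 in G3. Those of the 792 probes were 0.196, 0.144 and 0.136, so bright probes in general were also more spread in G1.

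Paralogs and copies were read with care, since a 50-base probe may not tell near-identical transcripts apart. Rpl22l1, the paralog of Rpl22, was at 8.04 to 8.36 in G1 and 8.30 to 8.57 in G3 (0.16 ± 0.06, SE, limma adjusted p = 0.185), beside Rpl22, which differed by 0.0051. Rpl7l1, a paralog of Rpl7, was at 11.60 to 12.37 in G1 and 11.69 to 11.90 in G3 and differed by -0.13 ± 0.10 (SE, limma adjusted p = 0.525), on the other side from Rpl7. Rpl3 itself differed by -0.0047 against -0.17 for Rpl3l. Rpl37l1 differed by -0.081 (limma adjusted p = 0.726), and the X-linked Rps4x by 0.18 (limma adjusted p = 0.220).

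Between the sexes, tested over all 18 pups with the exposure group in the fit, no member passed an adjusted p of 0.05, and 0.00444% of all probes did. At an unadjusted p of at most 0.05, 1 member was higher in females and 4 were lower, 1.49% and 5.97%, against 2.61% and 2.45% of all probes. The first was Rpl36al1 (0.19 ± 0.05, SE), and the others were Rpl32 (-0.12 ± 0.04), Rps3a (-0.14 ± 0.06), Rps27 (-0.16 ± 0.07) and Rpl23a (-0.11 ± 0.04), all with a limma adjusted p of 0.899. The interaction of sex and exposure gave 0 members at an adjusted p of 0.05, and 1 among all probes. At an unadjusted p of at most 0.05 it gave 4 members. The share of all probes at that unadjusted p was not counted for the interaction, so the 4 have no background to be read against.

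Other genes of the translation machinery were taken from lists that were chosen with earlier results of these data known. Of the ribosomal proteins that the symbol rule leaves out, Rack1, on the head of the small subunit, was the one measured of the 4 symbols listed. It was at 11.77 to 12.89 in G1 (median 12.34), 12.57 to 13.01 in G2 (median 12.92) and 13.01 to 13.21 in G3 (median 13.04), with all 6 G3 pups above the highest control. The difference was 0.74 (limma adjusted p = 0.0777). Of 15 measured elongation factors and other mRNAs listed as carrying a TOP motif, some of which also stand in the next lists, 7 were higher and 1 lower in G3 than in G1 at an unadjusted p of at most 0.05, which is 46.7% and 6.67%, beside 14.1% and 15.5% of probes above the median brightness, and the median difference was 0.12. The smallest adjusted p was that of Eef1b2, the exchange factor of elongation factor 1, at 11.33 to 12.41 in G1 and 12.38 to 12.77 in G3 (0.75, limma adjusted p = 0.0631). Npm1, a nucleolar chaperone of ribosome assembly, differed by 0.99 (limma adjusted p = 0.121) and ranged from 10.36 to 12.26 among the controls. Of 25 initiation factors 4 were higher and 4 lower (16% each), with Eif3d and Eif4h among the lower (-0.32 and -0.26), and their median was -0.029. Of 17 genes of mTOR signalling and TOP mRNA control 2 were higher, Gabpa and Yy1, both transcription factors, and 2 lower, Rps6kb2 and Rptor (11.8% each).

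The factors that build ribosomes and the proteins of the mitochondrial ribosome were read against the same background, 8.59% higher and 9.98% lower over all probes and 14.1% and 15.5% over those above the median brightness. Of 77 ribosome biogenesis factors 6 were higher and 15 lower in G3 than in G1 at an unadjusted p of at most 0.05 (7.79% and 19.5%), with a median of -0.013. One of them, Dcaf13, which takes part in small subunit processing, passed the test, at 11.05 to 11.23 in G1, 10.73 to 11.01 in G2 and 10.85 to 10.98 in G3. All exposed pups lay below the controls, where 1.95% of all probes separated G3 from G1 and 0.448% G2 from G1. In G3 against G1 the value of Dcaf13 fell by 0.22 (limma adjusted p = 0.0477), and 0.0799% of all probes passed. In G2 against G1 it differed by -0.23 and did not pass (limma adjusted p = 0.4185). Gnl2 and Rrp9, further factors of the nucleolus, differed by -0.32 and -0.21 (limma adjusted p = 0.0632 and 0.0680). Of 62 mitochondrial ribosomal proteins, which serve the separate ribosome of mitochondria, 6 were higher and 16 lower (9.68% and 25.8%), with a median of -0.053 and 0 past an adjusted p of 0.05. Mrpl52 was at 12.39 to 12.94 in G1 and 12.03 to 12.32 in G3 (-0.40, limma adjusted p = 0.0616) and Mrps18b differed by -0.24 (limma adjusted p = 0.0744). The cytosolic family had 15 higher and 8 lower of 67, and the difference between the families was not tested.

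Markers of other cell types were read beside these values. Hepatocyte markers, 8 measured, had a median summed level of 18.08 in G1, 18.15 in G2 and 18.09 in G3 with overlapping ranges, led by Alb. Kupffer cell and leukocyte markers (12 measured), stellate cell markers (7), endothelial markers (3), cholangiocyte markers (4) and exocrine pancreas markers (7) had overlapping ranges in all 3 groups. Cell division genes (12 measured) were counted at an unadjusted p of at most 0.05. In G3 against G1 0 were higher and 1 lower (8.33%), beside 8.59% and 9.98% of all probes. In G2 against G1 2 were higher (16.7%) and 0 lower, beside 4.4% and 5.59%. In G3 against G2 0 were higher and 3 lower (25%), beside 4.18% and 5.29%. The smallest limma adjusted p among these genes was 0.238, 0.486 and 0.279 in the 3 comparisons. Their part in the ribosomal protein values was not tested. Skeletal muscle markers stood at 10.86 to 10.95 in G1 and at up to 14.85 in G3, where Acta1 was at 13.70 in replicate 2 and 8.91 in replicate 4. Without these 2 pups, an alternative added after seeing the data, 12 members were higher and 4 lower in G3 than in G1 at an unadjusted p of at most 0.05, and 0 passed the adjusted threshold. That fit holds fewer pups, and the share of all probes in it was not counted.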

How the data were processed

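Liver RNA of 18 pups (G1, G2 and G3, 6 each) was hybridized to 22523-probe arrays. The deposited values are log2 intensities that the authors had preprocessed and normalized with lumi in FlexArray. Neither the version of lumi nor its normalization is given in the sources used here. The table holds no detection p, so a probe near the median of all probes (7.84) has no measured order. Array medians ran from 7.8391 to 7.8466, and correlations between arrays from 0.974 to 0.995. No transformation or filter was added.

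Each pair of groups was tested over its 12 arrays with the sexes pooled, as the study's methods do, with limma 3.58.1 in R 4.3.3 (lmFit and eBayes, two-sided) in place of their two-sample Bayesian test, and the sexes over all 18 arrays with group as a covariate. The adjustment was that of Benjamini and Hochberg across the 22523 probes, and calls needed an adjusted p of at most 0.05, also counted with a 2-fold limit. Array weights used statmod 1.5.0. The code was tested on simulated data.

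The members, the lists and the rule for named genes were chosen with earlier results of these data known. Named were members past the adjusted threshold, the 6 of smallest p on each side of each comparison between groups, the 4 of smallest p between the sexes, the 5 highest and 5 lowest means, the 3 of largest control SD, paralogs and members with several probes, and from each list up to 4 genes of smallest p and the most abundant marker. The lists were ribosomal proteins outside the rule, elongation factors and TOP mRNAs, initiation factors, ribosome biogenesis, mTOR signalling, mitochondrial ribosomal proteins, cell division genes and markers of 8 cell types. Promoters came from RefSeq (GRCr8). Same-numbered pups did not deviate together (correlations -0.341 to 0.227, over 0.1 in 2 of 18 pairs), so numbers were not taken to pair pups.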

Additional observations from a re-analysis of the deposited data

Results flagged for a closer look

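Over 40 quantities (the named members, the second Rps9 probe, the subunit means and their difference) in each of 3 groups, 5 of 120 groups of 6 held a pup far from the other 5, by a gap past Dixon's 95% limit for 6 values. Chance gives about 1 in 20 such groups. Both Rps9 probes set G1 replicate 1 apart, at 13.35 against 10.68 to 11.47 for the brighter probe and at 12.47 against 9.13 to 9.78 for the second probe. G1 replicate 2 was the highest control for Rps10, at 14.51 against 14.16 to 14.28, and for Rpl3l, at 8.84 against 8.48 to 8.61. G2 replicate 2 was the highest of its group for Rpl37l1, at 10.88 against 10.55 to 10.63.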

How the results depend on the processing

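The count of members past an adjusted p of 0.05 in G3 against G1 was 0 and rose to 2 with all 3 groups fitted together, 1 with a variance prior that follows expression, and 3 with dim probes left out or with array weights. With single pups left out it ran from 0 to 10, the 10 without G1 replicate 6. In the other 2 comparisons between groups it stayed at 0 under each alternative run, from 0 to 0 over the left-out pups. At an unadjusted p of at most 0.05, the numbers higher and lower in G3 against G1 (15 and 8) were 5 and 4 in females and 14 and 4 in males, and the lower count was 4 without the 2 G3 pups of raised muscle actin and 4 without the 2 controls of low Rpl10, both added after seeing the data. Left-out pups gave 12 to 18 higher and 5 to 11 lower. For G2 against G1 (5 and 5) all 3 groups together gave 8 higher, quantile normalization 3 lower, males 8 and 2, females 0 and 2, and left-out pups 2 to 11 higher and 0 to 8 lower. For G3 against G2 (6 and 3) all 3 groups together gave 3 higher, males 1 lower, females 2 and 0, and left-out pups 3 to 9 higher and 1 to 3 lower. In control pups alone 0 members were lower in females. The causes were not tested, except that fits on 1 sex hold fewer pups. Shares of all probes were not counted with pups left out or under the other alternatives. The member counts there thus have no background to be read against. With the replicate block, which rests on numbers not taken to pair the pups, the counts were 14 and 6, 7 and 4, and 6 and 2. No member passed the adjusted threshold with that block.

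With the median over members, the large minus small difference was 0.051 for G3 minus G1 and 0.11 for G3 minus G2, where the mean gave -0.041 and 0.013. Left-out pups gave -0.068 to -0.022 for G3 minus G1, -0.085 to -0.035 for G2 minus G1 and -0.014 to 0.044 for G3 minus G2.

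Of 2649 refits of single named members, 2552 kept their sign and side of the threshold, 81 changed the sign of a difference that was never called and 16 moved past the threshold with the same sign, in 7 member comparisons. Signal limits what can be read of the 5 members not above the median probe, and the unknown littermates limit all p-values.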
